A study of Homo sapiens with 19 samples.

Results

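The heat shock chaperones and ubiquitin genes described here were 9 protein-coding genes, HSPA1A, HSPA1B, HSPA8, HSPH1, DNAJB1, HSPB1, HSP90AA1, BAG3 and UBB. They were taken by name and matched by Ensembl gene ID, a rule that uses no measured value, although the list was drawn up with earlier results of these data known. They made up 9 of the 19942 genes in the TPM and eCLIP tables and 101 of the 256980 transcripts in the rRNA-depleted table.

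The libraries came from SH-SY5Y, a human neuroblastoma cell line, and were made to ask which RNAs the stress granule proteins G3BP1 and G3BP2 bind and which RNAs enter the granules. Stress granules (SGs) are assemblies of untranslated mRNAs and proteins that form when sodium arsenite (AS), which causes oxidative stress and protein damage, stops translation. Of 19 samples, 15 had columns that could be used. They were 8 eCLIP libraries (G3BP1 and G3BP2, untreated and AS, 2 replicates each), 5 poly(A) RNA-seq libraries (siCtrl, siG3BP1, siG3BP2, Total and SG, 1 each) and 2 rRNA-depleted RNA-seq libraries (untreated and AS, 1 each). The siCtrl, siG3BP1 and siG3BP2 cells received a control siRNA or an siRNA to G3BP1 or G3BP2. SG was RNA precipitated with an antibody to G3BP1 from the cleared lysate of AS-treated cells, and Total was RNA of a part of that lysate. The label of the rRNA-depleted AS library gives 500 µM AS for 1 h. The labels of all eCLIP, siRNA, Total and SG samples give 50 mM AS for 1 h, including those whose titles mark them as untreated or siCtrl, and the methods give the lower dose. The methods do not describe AS for the siRNA-treated cells, so whether these cells were exposed to AS is not settled. The 4 size-matched input samples were not analysed here.

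Chaperones of the HSP70 family bind unfolded stretches of proteins and release them in a cycle driven by ATP. J-domain proteins such as DNAJB1 load clients and start ATP hydrolysis, and HSPH1 and BAG3 exchange the nucleotide so that the client is let go. Small heat shock proteins such as HSPB1 hold unfolding proteins, HSP90 acts on later folding steps, and ubiquitin marks proteins that cannot be refolded for the proteasome. Many of these genes are switched on by heat shock factor 1, HSF1, which binds inverted repeats of GAA in their promoters, called heat shock elements.

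The promoter letters are shown first because heat shock elements are the best known feature of this gene family. RefSeq windows on GRCh38.p14 from 250 bases before to 50 bases after an annotated start were at hand for 9 of 9 genes, 13 windows in all. They were searched on both strands for 3 repeats (GAANNTTCNNGAA or TTCNNGAANNTTC) and for 2 repeats (GAANNTTC or TTCNNGAA), the latter being contained in the former. Matches of 3 repeats were in windows of HSPA8 and HSP90AA1, and at least 2 repeats were in windows of 6 genes. Across all genes with a window, 0.608% of 27305 had a match of 3 repeats and 16.2% had one of 2 repeats. The lines below give 30 bases around the match 5′ to 3′ on the strand of the gene, with the repeats in capitals.
HSPA1A, chr6:31815426-31815455, plus strand, repeats from 106 bases before the start: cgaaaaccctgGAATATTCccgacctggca
HSPA1B, chr6:31827622-31827651, plus strand, repeats from 105 bases before the start: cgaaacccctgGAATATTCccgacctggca
HSPA8, chr11:123062345-123062374, minus strand, repeats from 230 bases before the start: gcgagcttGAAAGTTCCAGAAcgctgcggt
HSPA8, chr11:123062170-123062199, minus strand, repeats from 55 bases before the start: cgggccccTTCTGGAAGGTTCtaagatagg
DNAJB1, chr19:14518456-14518485, minus strand, repeats from 77 bases before the start: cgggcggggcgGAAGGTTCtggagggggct
DNAJB1, chr19:14518426-14518455, minus strand, repeats from 47 bases before the start: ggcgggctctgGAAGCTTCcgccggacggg
HSPB1, chr7:76302480-76302509, plus strand, repeats from 182 bases before the start: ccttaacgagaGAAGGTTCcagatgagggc
HSP90AA1, chr14:102087111-102087140, minus strand, repeats from 88 bases before the start: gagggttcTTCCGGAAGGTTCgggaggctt
The lines of HSPA1A and HSPA1B differed at 1 of 30 bases, A6C, counted from the 5′ end of the line with the base of HSPA1A first. HSP90AA1 had a further match of 2 repeats 68 bases before the start, and another window of DNAJB1 had one just after its start. In the windows of HSPH1, BAG3 and UBB these letters were not found, which says nothing of whether HSF1 binds there.

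Several of the 9 mRNAs hold stretches that recur exactly at other loci, and a read pair that lies wholly within such stretches cannot be placed with certainty. By the methods the RNA-seq reads were paired and longer than 50 bases. The shares below are therefore of 50-base stretches and not of reads, and the share of reads that could not be placed was not measured. Of the 50-base stretches of the HSPA1A mRNA, 75.1% were also in HSPA1B, which lies next to it on chromosome 6 and encodes the same kind of stress-inducible HSP70. For HSPA1B, 71.6% were also in HSPA1A, so the split of reads between this pair is uncertain, and their sum is given too. Stretches found elsewhere made up 34.5% of UBB, of which 25.9% of all stretches were in the pseudogene UBBP4. They made up 24.6% of HSP90AA1, 23.2% of HSPA8, 16.6% of HSPB1, 4.29% of DNAJB1 and 0.212% of HSPH1, and they included the pseudogenes HSPA8P1, HSP90AA2P and HSPB1P1. BAG3 had none. The alternate contigs of the reference used here, which repeat parts of chromosome 6, held 97.9% of the stretches of HSPA1A and 98% of those of HSPA1B.

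The level of each gene was read first, in TPM, an abundance scaled for transcript length and for the library total that can be compared between genes. In bulk RNA, fewer expressing cells and less RNA per cell cannot be told apart. Among the HSP70 genes, HSPA8, the constitutive member that serves unstressed cells, had 1025 TPM in siCtrl, 1021 in siG3BP1, 591 in siG3BP2, 648 in Total and 1062 in SG. HSPA1A had 15 TPM in siCtrl, 12.3 in siG3BP1, 14.5 in siG3BP2, 79.3 in Total and 225 in SG. HSPA1B had 3.84, 3.37, 4.42, 30.5 and 53.6 TPM in the same order. Both inducible genes were low in the 3 siRNA libraries and high in the 2 libraries of AS-treated cells, whereas HSPA8 was among the most abundant mRNAs in all 5. The ratio of HSPA8 to HSPA1A fell from 68.3 in siCtrl to 8.17 in Total and 4.71 in SG.

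HSPH1, the HSP110 that acts as an exchange factor for HSP70, had 36.8 TPM in siCtrl, 40.8 in siG3BP1, 42 in siG3BP2, 54.4 in Total and 186 in SG. DNAJB1, the J-domain partner of HSP70, had 78.5, 65.9, 71.9, 256 and 657 TPM in the same order. BAG3, an exchange factor that also takes clients to autophagy, had 12, 11.3, 10.7, 27.5 and 130 TPM. These 3 partners of HSP70 were lowest in the siRNA libraries, higher in Total and highest in SG.

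HSP90AA1, the inducible cytosolic HSP90, had 210 TPM in siCtrl, 235 in siG3BP1, 291 in siG3BP2, 477 in Total and 973 in SG. HSPB1, the small heat shock protein, had 703, 748, 770, 721 and 404 TPM in the same order. UBB had 1816, 1768, 1742, 2069 and 507 TPM. HSP90AA1 followed the order of the HSP70 partners, while HSPB1 and UBB were lowest in SG. UBB ranked the first of the 9 genes in the other 4 libraries and the fourth in SG, where HSPA8 ranked the first. Together the 9 genes held 0.56% to 0.699% of the TPM listed for protein-coding genes in each library. With 1 library per condition, these differences have no replicate check, and no p-value was computed for them.

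**Figure D1:**
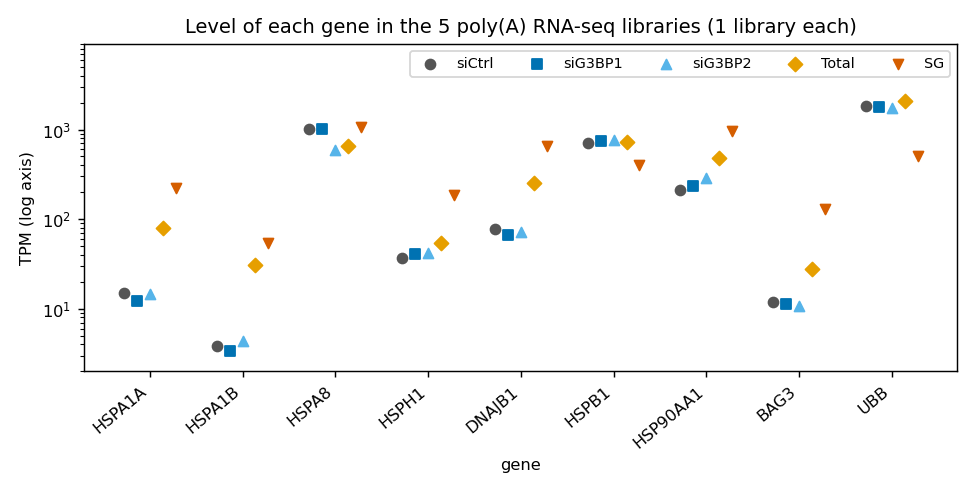
Level in TPM on a log axis of the 9 genes in the 5 poly(A) libraries, 1 point per library. HSPA1A goes from 12.3 to 15 TPM in the siRNA libraries to 79.3 in Total and 225 in SG, and UBB falls from 2069 in Total to 507 in SG.

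The cell line was checked with marker genes. Of 12 markers of noradrenergic neuroblastoma cells 11 were above 1 TPM in all 5 poly(A) libraries, and TH was at most 0.389 TPM. The summed level of 3 blood markers was 0.553 to 28.7 TPM, the highest being CD68 in SG, HBB was at 0 in all 5 and PTPRC at most 0.0295 TPM, and 3 epithelial markers summed to at most 1.53 TPM. Of 6 Schwann or mesenchymal markers 3 were above 1 TPM in all 5, with sums from 31.2 to 194 TPM, the highest in SG, and SOX10 was at or near 0. Their part in the results was not tested.

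Total against siCtrl was the poly(A) comparison nearest to a stress response. HSPA1A, HSPA1B, DNAJB1, HSP90AA1 and BAG3 were higher in Total, and HSPA8, HSPH1, HSPB1 and UBB did not pass the rule. The libraries also differ in siRNA transfection, in the clearing of the lysate and in the experiment they came from, which cannot be told apart from AS. Higher meant a ratio of TPM + 1 above 2, and lower a ratio under 0.5, with more than 1 TPM in the higher library. By this rule 5 of the 9 genes were higher and 0 were lower, beside 1.28% of 12173 genes higher, 19.6% lower and 20.9% either. The median gene had a ratio of 0.75 (-0.41 on the log2 scale), so ratios are also given relative to it. With Total rescaled to a median ratio of 1, the split over all genes became 3.63% higher and 10.7% lower, and 5 of the 9 genes were higher.

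HSPA1B had the highest ratio of the 9, 6.51 on TPM + 1, followed by HSPA1A at 5.02. Summed over this pair, which removes the uncertain split, TPM rose from 18.8 in siCtrl to 110 in Total. DNAJB1 had a ratio of 3.24, HSP90AA1 of 2.27 and BAG3 of 2.19. Relative to the median gene these were TPM ratios of 10.6 for HSPA1B, 7.04 for HSPA1A, 4.36 for DNAJB1, 3.05 for BAG3 and 3.04 for HSP90AA1. All 5 lay at or above the 99th percentile of the genes tested, with HSPA1A and HSPA1B both at 99.9.

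The other 4 genes did not pass the rule. HSPH1 had a ratio of 1.47, UBB of 1.14, HSPB1 of 1.03 and HSPA8 of 0.632. Relative to the median gene HSPH1 was at 1.97, UBB at 1.52, HSPB1 at 1.37 and HSPA8 at 0.842, so HSPA8 was the only one of the 9 below the median gene.

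Of 85 other proteostasis genes in 9 lists, 72 passed the low-value filter, 2 were higher and 6 were lower. HSPA6, an HSP70 made almost only under stress, was listed at 0 TPM in siCtrl, siG3BP1 and siG3BP2, at 23.2 in Total and at 38 in SG. ZFAND2A, a stress-induced proteasome adaptor, had 19 TPM in siCtrl and 48.9 in Total. None of 12 genes for HSP90 and its cochaperones and none of 10 chaperonin genes was higher or lower, and their median log2 ratios were 0.00 and 0.28. Among 15 J-domain genes tested beside DNAJB1, 0 were higher and DNAJC5 was lower, at 11.4 against 27 TPM. HSF1 itself was lower, with 12 TPM in Total and 39.7 in siCtrl, while siG3BP2 was also low at 14.9 TPM. Both rRNA-depleted libraries list HSF1 at 0, so they give no check of this difference. HSF4 (4.86 against 12.2 TPM), BAG1 (32 against 89.4), HSPA12A (0.415 against 6.87) and UBQLN2 (15.3 against 37.7) were the other genes that were lower.

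**Figure D2:**
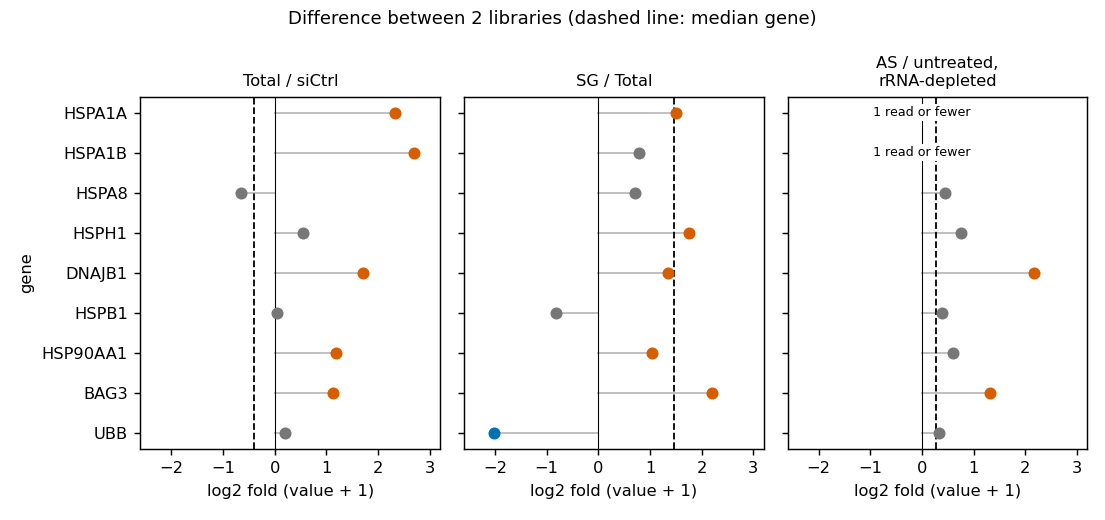
Log2 ratio of value + 1 for the 9 genes in Total against siCtrl, SG against Total and AS against untreated (rRNA-depleted). Orange is higher by the rule, blue is lower, grey is neither, and the dashed line is the median gene (-0.41, 1.47 and 0.27). In Total against siCtrl 8 of the 9 genes lie right of the line, in SG against Total 3 of 9.

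The rRNA-depleted libraries compared AS with untreated cells directly, without siRNA or lysis for SGs. DNAJB1 and BAG3 were higher after AS, the other 5 readable genes were between 1.25 and 1.69 times the untreated value, and HSPA1A and HSPA1B were almost unread. The deposited values are per transcript, and their steps are those of RPKM, reads scaled by transcript length and library total, from 13291958 reads in the untreated library and 11281587 in the AS library. Overlapping transcripts of a gene count the same reads again, so values summed over transcripts compare libraries but not genes. By the same rule on summed RPKM + 1, 2 of the 7 genes tested were higher and 0 lower, beside 4.08% of 16457 genes higher, 1.28% lower and 5.36% either. The median gene had a ratio of 1.2 (0.27 on the log2 scale), and with AS rescaled to a median ratio of 1 the split was 2.24% higher and 1.8% lower, with 2 of the 9 genes higher.

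DNAJB1 was summed to 197 RPKM untreated and 890 RPKM after AS, a ratio of 4.5 on RPKM + 1 that was above 99.8% of the genes tested. Its MANE transcript DNAJB1-201, the reference transcript shared by RefSeq and Ensembl, had 324 reads untreated and 1246 after AS. The ratio of these rates was 4.53, with an exact 95% interval from 4.01 to 5.14. Such intervals cover counting error only, not the spread between cultures. All 20 DNAJB1 transcripts with at least 10 reads untreated had ratios from 4.42 to 4.75, and they share most of their reads. The 5 transcripts without a defined CDS that lie upstream of the main body had at most 4 reads in either library.

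BAG3 was summed to 3.2 RPKM untreated and 9.5 after AS, a ratio of 2.5 on RPKM + 1. BAG3-201 had 80 and 174 reads, a ratio of 2.56 (1.96 to 3.38). BAG3-202, a shorter transcript, had 13 and 45 reads, a ratio of 4.08 (2.16 to 8.24), and these intervals overlap. Both BAG3 transcripts were higher after AS.

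HSPH1 was summed to 157 and 265 RPKM, a ratio of 1.69, which did not pass the rule. HSPH1-201 had 1364 reads untreated and 1934 after AS, a ratio of 1.67 (1.56 to 1.79). HSPH1-208, annotated as retaining an intron near the 5′ end of the gene, had 48 and 135 reads, a ratio of 3.31 (2.37 to 4.71). This transcript was picked after its values were seen, and its counting interval lay above that of HSPH1-201. HSPH1-205, with a retained intron near the 3′ end, had 20 and 36 reads and a ratio of 2.12 (1.2 to 3.87). The other retained-intron transcript of HSPH1 covers 11 exons and had 1120 and 1575 reads, a ratio of 1.66 (1.53 to 1.79).

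HSP90AA1 had a summed ratio of 1.52, and HSP90AA1-201 had 6101 reads untreated and 7871 after AS, a ratio of 1.52 (1.47 to 1.57). HSPA8 had a summed ratio of 1.37, and HSPA8-224 had 11207 and 13255 reads, a ratio of 1.39 (1.36 to 1.43). HSPB1-201 had 904 and 988 reads, a ratio of 1.29 (1.18 to 1.41). These 3 genes were above the median gene by less than the fold rule asks. UBB-201 had 4045 and 4297 reads, a ratio of 1.25 (1.2 to 1.31) that is near the median gene.

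Per transcript, 92 transcripts of the 9 genes passed the low-value filter and 23 were higher by the fold rule, 20 of DNAJB1, 2 of BAG3 and 1 of HSPH1, while 0 were lower. Over all 100705 transcripts tested, 1.51% were higher and 0.47% lower. Transcripts of a gene share reads and are not independent of each other.

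**Figure D3:**
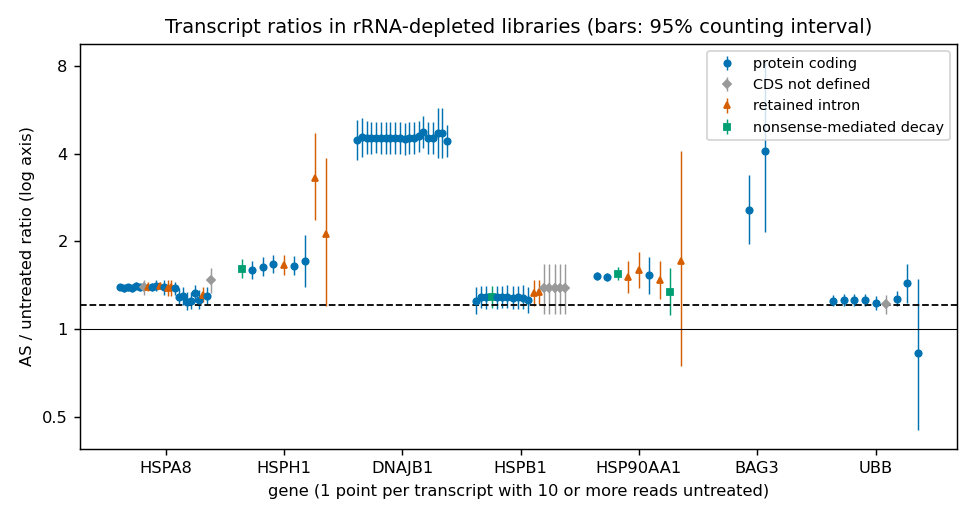
Ratio of AS to untreated RPKM on a log axis for each transcript with 10 or more untreated reads, by gene and annotated type, with exact 95% counting intervals. The 20 DNAJB1 transcripts lie between 4.42 and 4.75, HSPH1-208 (retained intron) is at 3.31 while HSPH1-201 is at 1.67, and the dashed line is the median gene.

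HSPA1A and HSPA1B had 0 reads untreated and 1 read per transcript after AS. Both libraries were at or under the 3 reads that a count of 0 allows, so no ratio was formed, and 3 reads would be 0.111 RPKM for HSPA1A-201 in the AS library. HSPA6-201, which lies on another chromosome, had 0 reads untreated, where 3 reads would be 0.0958 RPKM, and 31 reads or 1.17 RPKM after AS. A stretch of chromosome 6 around HSPA1A held 14 genes above 10 TPM in Total, with starts from 31530219 to 32178405 (hg38), and 6 of them (42.9%) were under 1 RPKM after AS, against 2.01% of 5784 such genes elsewhere. HSPA1A and HSPA1B are counted among them, and without this pair it was 4 of 12 (33.3%). These 4 were LSM2, RNF5, ATP6V1G2-DDX39B (0.609 RPKM after AS) and a gene without a symbol (0.643). ATP6V1G2-DDX39B has the same start as DDX39B, which had 8.59 RPKM after AS. The gene without a symbol starts just after the start of CSNK2B, which had 9.25. The share therefore includes annotated genes that lie at loci with reads. LSM2 and RNF5 of this stretch were at 0 in both rRNA-depleted libraries with 11.8 and 11.1 TPM in Total. The low values of HSPA1A and HSPA1B stand beside low values of genes of the same stretch, and the part of read placement in them was not tested. Whether the alignment index of the authors held alternate contigs is not given in the sources used here.

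Of the other 9 lists, 75 genes were tested in this comparison, 7 were higher and 0 lower. They were HYOU1, an HSP110 of the endoplasmic reticulum (27.8 and 98.4 RPKM), HSPA6, DNAJB14 (18.9 and 46.5), CRYAB (0 and 1.38), HSPB8 (0.168 and 1.34), BAG6 (4.2 and 21.7) and ZFAND2A (11.2 and 40.6). CRYAB and HSPB8 were just above the minimum of 1 RPKM after AS, with ratios of 2.38 and, rounded, 2 on RPKM + 1. Their sums over overlapping transcripts can count the same reads again, and no read counts are given for them. BAG6 lies in the stretch of chromosome 6 described above, where values moved both ways between these libraries. DDX39B had 3.86 RPKM untreated and 8.59 after AS, while CSNK2B had 154 and 9.25, DDAH2 26.9 and 2.34, and NELFE 21 and 5.26. In poly(A) RNA-seq BAG6 had 23.7 TPM in siCtrl and 19.8 in Total. The part of read placement in the BAG6 difference was not tested. HSF1 was listed at 0 in both libraries.

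SG against Total asked which RNAs were concentrated in SG cores. Total is shared with the comparison to siCtrl. By the fold rule 5 of the 9 genes were SG-enriched, 1 was SG-depleted and 3 were neither, but the enriched ones were at or below the general level of the library apart from BAG3 and HSPH1. Over all 13560 genes tested, 62.9% were SG-enriched, 9.45% SG-depleted and 72.3% either, and the median gene had a ratio of 2.78 (1.47 on the log2 scale). With SG rescaled to a median ratio of 1, the split was 35.3% and 25.6%, 0 of the 9 genes were enriched and 2, UBB and HSPB1, were depleted. The enrichment of these genes therefore depends on the scale, and both are given.

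BAG3 had the highest ratio, 4.58 on TPM + 1, and 1.7 relative to the median gene. HSPH1 had 3.37, and 1.23 relative to the median gene. HSPA1A had 2.82, which was 1.02 relative to the median gene, in the middle of the library. DNAJB1 had 2.55 and HSP90AA1 2.04, or 0.922 and 0.734 relative to the median gene. HSPA1B had 1.73 and HSPA8 1.64, or 0.633 and 0.59 relative to the median gene. These 4 genes thus change direction with the scaling. For the HSPA1 pair summed, TPM was 110 in Total and 279 in SG. The ratio of HSPA1A to HSPA1B was 2.6 in Total, 4.2 in SG and 3.28 to 3.91 in the siRNA libraries, and it is subject to the uncertain split of reads.

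HSPB1 had a ratio of 0.561, or 0.202 relative to the median gene, which placed it above 10.8% of genes. UBB had a ratio of 0.245, or 0.0882 relative to the median gene, above 3.85% of genes. RPS27A, which makes ubiquitin joined to a ribosomal protein, was SG-depleted too, with 802 TPM in Total and 55.6 in SG.

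Transcript length went with these ratios. Across 10421 genes above 1 TPM in both libraries, Spearman's rho between length of the MANE transcript and the SG to Total ratio was 0.751, given as a description since genes share both libraries. Among the 9 genes rho was 0.717. HSPB1 (777 nt) and UBB (933 nt) were the shortest and HSPH1 (5244 nt) the longest, against a median of 3176 nt. HSPA1A (2400 nt), HSPA1B (2517 nt), DNAJB1 (2242 nt), HSPA8 (2264 nt) and BAG3 (2561 nt) had nearly the same length, and their ratios ran from 1.64 to 4.58.

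**Figure D4:**
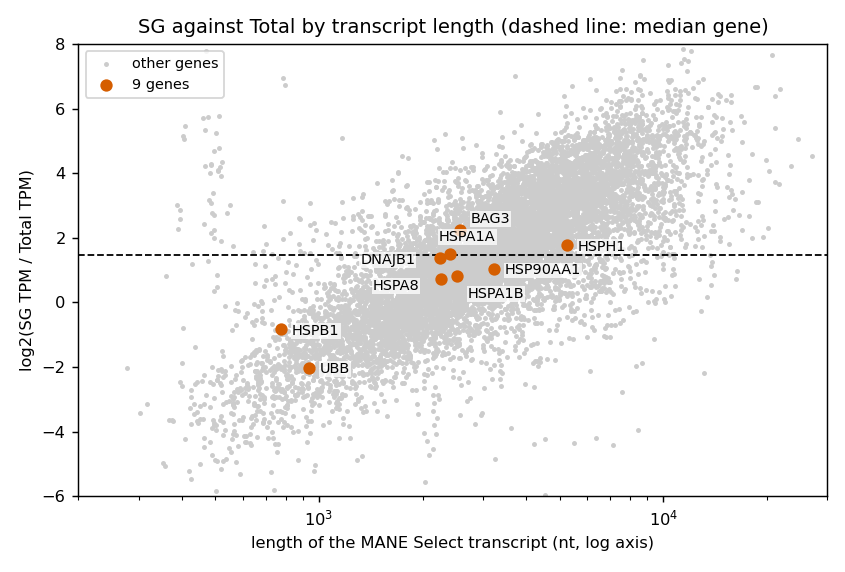
Log2 ratio of SG to Total TPM against transcript length in nt on a log axis, for the 9 genes (orange) and other genes (grey), with the median gene dashed. HSPB1 (777 nt) and UBB (933 nt) lie at the short, low end, and HSPH1 (5244 nt) is the longest.

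The other proteostasis lists gave 27 SG-enriched and 7 SG-depleted genes of 75 tested, beside 62.9% and 9.45% of all 13560 genes tested. Their median log2 ratio was 0.35 beside 1.51 for all genes tested. These counts are without rescaling to the median gene. Of 11 further HSP70 and HSP110 genes 7 were enriched, close to the share of all genes, led by HSPA12A (0.415 TPM in Total and 35 in SG). Of 15 J-domain genes 8 were enriched, a lower share, led by DNAJB14 (0.632 and 28.9). Of 10 chaperonin genes 0 were enriched, and HSPE1, the cochaperonin among them, was depleted (240 and 61.6). Of 10 BAG and exchange factor genes beside BAG3, 2 were enriched, BAG4 (4.03 and 69.1) and BAG5 (6.03 and 39.6), and STUB1 was depleted (184 and 87.3), with a median log2 ratio of 0.04. The HSP90 cochaperone PTGES3 (202 and 81) was depleted.

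The knockdown libraries asked whether loss of G3BP1 or G3BP2 moved these mRNAs. None of the 9 genes passed the fold rule in either. G3BP1 had 18.7 TPM in siCtrl and 6 in siG3BP1 (32%), and G3BP2 had 38.1 TPM in siCtrl and 11.4 in siG3BP2 (29.9%), which checked the labels. In siG3BP1 0 of the 9 genes were called, beside 3.1% of 12280 genes (1.12% higher and 1.98% lower). In siG3BP2 0 of the 9 were called, beside 4.11% of 12229 (1.23% higher and 2.89% lower). The median gene had ratios of 0.941 and 0.919 (-0.09 and -0.12 on the log2 scale), and both comparisons share the siCtrl library with Total against siCtrl. With siG3BP2 rescaled to a median ratio of 1, the split was 1.57% higher and 2.36% lower, and 0 of the 9 genes were called on that scale in either knockdown.

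In siG3BP1 the ratios of TPM + 1 ran from 0.831 for HSPA1A to 1.12 for HSP90AA1. In siG3BP2 HSPA8 had a ratio of 0.577, from 1025 to 591 TPM, or 0.627 relative to the median gene, above 5.06% of genes. HSP90AA1 had 1.39, from 210 to 291 TPM, or 1.51 relative to the median gene, above 95.2% of genes. The other 7 genes had ratios between 0.9 and 1.14 in siG3BP2. In siG3BP1 HSPA8 was at 0.996, so its lower value was seen in 1 of the 2 knockdown libraries, and the difference between them was not tested.

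In the other lists HSPB8, a small heat shock protein, had 0.365 TPM in siCtrl, 2.38 in siG3BP1 and 2.43 in siG3BP2. HSPB8 was higher by the fold rule in both, with ratios of 2.48 and 2.51 on TPM + 1. These levels are low and the ratios are not far past the threshold. Both ratios rest on the same siCtrl library, so they are not independent of each other. BAG1 was lower in siG3BP1 (89.4 and 39.5 TPM), and HSF1 was lower in siG3BP2 (39.7 and 14.9 TPM). These were the only genes of 74 and 72 tested that passed the fold rule.

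eCLIP measured RNA crosslinked to G3BP1 or G3BP2 in duplicate, and no gene passed the test for a difference between AS and untreated cells. The deposited values take the steps of log10(number + 1), with whole numbers behind them. The recovered numbers sum to 4268911 to 26179736 per library, with replicate 2 smaller than replicate 1 in each of the 4 groups, so they were scaled to equal totals before the test. The values below are on the scaled log10 scale.

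HSPA1A was at 0 in all 8 libraries, and HSPA1B was at a recovered number of 1 in 1 untreated G3BP2 library and at 0 in the other 7. A 0 allows a number of up to 3. Of the other 12 genes of the stretch of chromosome 6 described above, 2 (16.7%), LSM2 and RNF5, were at 0 in all 8 eCLIP libraries, against 0.553% of 5784 genes elsewhere.

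HSPA8 had values of 0.48 and 0.00 in untreated G3BP1, 0.38 and 2.57 in AS G3BP1, 1.18 and 2.03 in untreated G3BP2 and 1.63 and 2.34 in AS G3BP2. The 2 AS G3BP1 libraries were further apart than the means of the groups, and replicate 2 was higher than replicate 1 in 3 of the 4 groups. HSPH1 had values of 2.31 and 2.45, 2.15 and 2.71, 2.45 and 2.03, and 2.16 and 2.27 in the same order of groups. Its treated and untreated libraries overlapped for both proteins.

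DNAJB1 had values of 2.64 and 2.82 in untreated G3BP1, 2.66 and 1.84 in AS G3BP1, 2.65 and 2.96 in untreated G3BP2 and 2.61 and 2.50 in AS G3BP2. For G3BP2 both AS libraries were lower than both untreated ones, by 0.25 in the means. BAG3 had values of 2.06 and 2.01 in untreated G3BP1, 2.05 and 2.13 in AS G3BP1, 2.0 and 2.20 in untreated G3BP2 and 2.01 and 2.08 in AS G3BP2. Among the genes above 0 in all 8 libraries it had the smallest range over the 8. HSP90AA1 had values of 2.68 and 2.73, 2.64 and 2.63, 2.54 and 2.47, and 2.63 and 2.49 in the same order of groups. For G3BP1 both AS libraries were just lower than both untreated ones.

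HSPB1 had values of 1.72 and 2.29 in untreated G3BP1, 1.56 and 1.99 in AS G3BP1, 1.82 and 1.66 in untreated G3BP2 and 1.51 and 0.00 in AS G3BP2. UBB had values of 1.71 and 2.19, 0.94 and 2.52, 1.23 and 0.00, and 1.14 and 1.34 in the same order of groups. Both genes had low recovered numbers, at most 106 per library, as did HSPA8 with at most 104, and duplicates could lie far apart, as those of UBB in AS G3BP1.

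**Figure D5:**
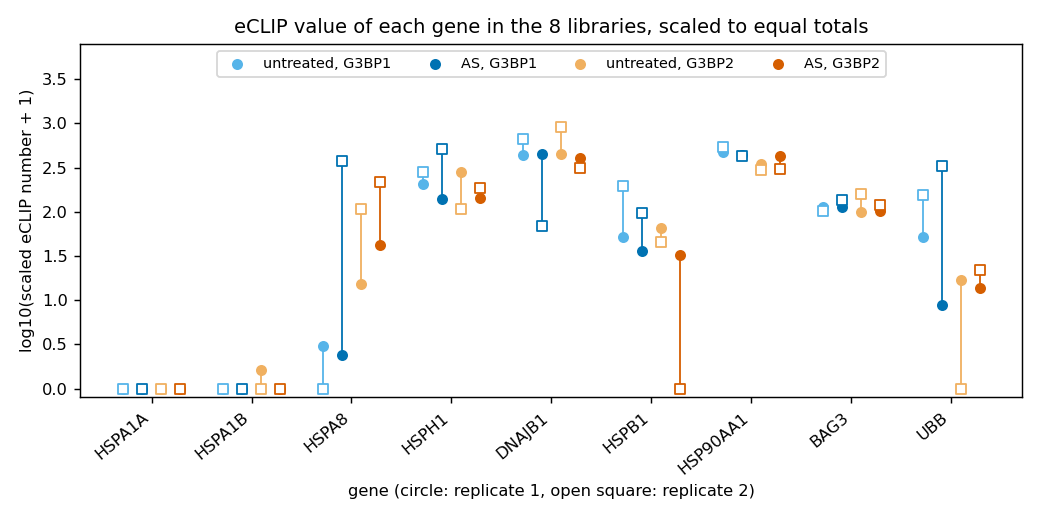
Scaled eCLIP value, log10(number + 1), of the 9 genes in the 8 libraries, with replicate 1 as circles and replicate 2 as open squares joined by a line. BAG3 lies between 2.0 and 2.20 throughout, HSPA1A is at 0 in all 8, and the duplicates of HSPA8 and UBB are far apart.

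By limma with Benjamini-Hochberg adjustment over all genes tested, 0 of the 7 genes tested were called in AS against untreated for G3BP1, beside 0% of 18888 genes, and 0 of 7 for G3BP2, beside 0% of 19035. At an unadjusted p under 0.05 the shares were 2.56% and 3.34% of genes, and 0 of 7 genes for each protein. That count was not stable when 1 library was left out, a fit that leaves 1 library in a group. The smallest unadjusted p of the 7 was that of DNAJB1 in G3BP2, 0.0916 by limma, with a log10 change of -0.25 ± 0.119 (SE, n = 2 against 2) and an adjusted p of 0.995. For HSPA8 the changes were 1.24 ± 0.756 in G3BP1 (adjusted p = 0.996) and 0.38 ± 0.37 in G3BP2 (adjusted p = 0.995). For BAG3 the 95% interval of the change ran from -0.25 to 0.37 in G3BP1 and from -0.34 to 0.24 in G3BP2, and for UBB from -1.57 to 1.13 and from -0.52 to 1.78.

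By overlap alone, both AS libraries were lower than both untreated ones for HSP90AA1 in G3BP1 and for DNAJB1 and HSPB1 in G3BP2, and higher for 0 of the 7 genes. Over all genes 14.5% and 15.6% were lower in this way and 13.3% and 14.7% higher. In the test of whether the change differed between the proteins, 0 of 7 genes were called, beside 0% of 19259 genes (0.748% at an unadjusted p under 0.05). In G3BP2 against G3BP1 over all 8 libraries 0 of 7 were called, beside 0% of 19259 genes, with 1.74% at an unadjusted p under 0.05. HSP90AA1 was the gene of the 7 with an unadjusted p under 0.05 there, 0.0254 by limma, with a log10 difference of -0.14 ± 0.0509 (SE) and an adjusted p of 0.999.

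Per kilobase of gene, introns included, the mean of the 8 scaled numbers was 40 for HSPB1 and 38 for UBB, above 98.4% and 98.1% of genes, both being short genes, with spans of 1.62 and 1.95 kb. It was 16.4 for HSPA8, 10.1 for DNAJB1, 8.44 for HSPH1, 6.88 for HSP90AA1 and 4.43 for BAG3, where the median gene had 6.7. Single libraries carried some of these means. The highest library of UBB, AS G3BP1 replicate 2, had 170, and the mean of the other 7 was 19.2. The same library gave HSPA8 64.8, and the mean of the other 7 was 9.49. For HSPB1 the mean without its highest library was 28.7. The order of the genes also differed between groups, as UBB had a mean of 52.3 in untreated G3BP1 and 4.09 in untreated G3BP2, where BAG3 had 4.06 and 4.82. These densities take no account of the level of each mRNA.

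Genes with a profile like that of the 9 were sought over the log2 differences of siG3BP1, siG3BP2, Total and SG from siCtrl and of AS from untreated, among 10727 genes. The nearest to the median profile of the 9 by Euclidean distance were ZNF707 (0.30), POPDC2 (0.49), ZNF385D (0.51), PRMT9 (0.53) and DDX10 (0.53). The nearest to HSPA1A was HSPA1B (0.56), with which it shares reads, and the next were ZNF233 (1.24) and TRAPPC12 (1.30). The AS difference of HSPA1A and HSPA1B in these profiles rests on at most 1 read per transcript, and it also enters the median of the 9.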

How the data were processed

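The 9 genes and the lists beside them were chosen with earlier results of these data known. Per the labels, reads were aligned to hg38, with HISAT2 2.1.0 named in the processing notes of the submitters. For poly(A) RNA-seq the authors deposited TPM of protein-coding genes made with HISAT2 and StringTie. The values deposited for the rRNA-depleted libraries under a TPM header behave as RPKM, since 100% of 83560 low values untreated and 99.999% of 85436 after AS were whole reads within 0.02 when multiplied by length. For eCLIP the authors removed duplicate molecules with fastp, aligned with STAR and deposited log10 values per gene, and which step these count is not given in the sources used here. The number of value columns not used was 0.

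Genes and transcripts were matched to GENCODE 44 (the authors used another release), and 91.1% of transcripts matched by ID. RNA-seq ratios used a pseudocount of 1 and a minimum of 1 in the higher library, with thresholds of 2 and 0.5, and no test, as each condition had 1 library. Intervals of read ratios are exact 95% binomial intervals of 2 counts, and a count of 0 was read as up to 3. eCLIP numbers were scaled to equal totals and log10(number + 1) was compared with limma 3.58.1 in R 4.3.3 (intensity trend, Benjamini-Hochberg, threshold 0.05, genes above 0 in at least 2 libraries, no block). Whether replicates were separate cultures is not stated, so p-values measure the spread between these libraries. The fold rule and the eCLIP test were run on simulated data with known changes. For eCLIP, recovery was required only at a log10 change of 2. This does not show that smaller changes, such as those of the 9 genes, would be found. Named genes were the 9 members throughout, G3BP1 and G3BP2 as checks, their 3 or 5 nearest profiles, and from each list up to 3 genes past the fold in each direction, and some genes the rule names are not reported here. LSM2, RNF5 and the other genes named from the chromosome 6 stretch were named after their values were seen. So were HSPH1-208 and the other transcripts beyond the 3 with the highest mean value. Tables and figures were made with Python 3.11.15, pandas 2.3.3, numpy 2.4.6, scipy 1.17.1 and matplotlib 3.10.9. Alternatives were other pseudocounts, scalings, thresholds, filters, the replicate block and leaving out each eCLIP replicate.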

Additional observations from a re-analysis of the deposited data

How the results depend on the processing

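Of 96 counts of the 9 genes under alternatives, 90 stayed within 1.5 times the value reported. These include all counts of the knockdown and eCLIP comparisons, which were 0 throughout and had little room to move. The 6 that moved were 3 of 10 in SG against Total, 1 of 10 in Total against siCtrl and 2 of 12 in AS against untreated (rRNA-depleted). In SG against Total, rescaling to a median ratio of 1 gave 0 of the 9 genes higher and 2 lower, and turned the log2 ratios of HSP90AA1 to -0.44, of DNAJB1 to -0.12, of HSPA8 to -0.76 and of HSPA1B to -0.63. Thresholds of 4 and 0.25 left 1 gene higher in SG against Total, 2 in Total against siCtrl and 1 in AS against untreated (rRNA-depleted), and a minimum of 10 left 1 there. Over all genes, calls in either direction under thresholds of 4 and 0.25 were 5870 for SG (9810 as reported), 39 for siG3BP1 (381), 61 for siG3BP2 (503), 338 for Total (2543) and 64 for AS (882). A minimum of 10 gave 129, 183, 1429 and 239 for the last 4, a pseudocount of 0.1 gave 714, 911 and 2076 for siG3BP1, siG3BP2 and AS, and the transcript with the highest mean value gave 431 for AS.

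In eCLIP, 0 of the 9 genes, of which 7 could be tested, passed the threshold under every alternative run. As deposited, without scaling, 2 genes of all passed in G3BP2, and the log10 changes became -0.06 for HSPH1 and -0.05 for BAG3 in G3BP1 and -0.01 for HSP90AA1 in G3BP2. At an unadjusted p under 0.05, G3BP2 had 1 of the 7 genes as deposited and 1 with the replicate block, against 0 as reported. Over all 19035 genes tested in G3BP2, 70 were higher and 89 lower at that level as deposited. These counts were 370 and 316 with the replicate block, and 329 and 306 as reported. With the replicate block, 0 genes passed the adjusted threshold in any comparison, and with the block on the deposited values these 3 changes were again -0.06, -0.05 and -0.01. Same-numbered libraries correlated in their deviations at 0.176 for G3BP1 and 0.127 for G3BP2 across 16476 genes, and with 2 numbers this does not show that they are pairs.

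Leaving out 1 library at a time, 0 to 2 genes of all passed in G3BP1, both without untreated replicate 2, 0 in G3BP2, 0 to 24 in the interaction, the 24 without AS G3BP1 replicate 1, and 0 in G3BP2 against G3BP1. The lone library left in a group was assumed to vary like the others. In G3BP1 the log10 change ran from -0.23 to 0.33 for HSPH1, -0.51 to 0.06 for HSPB1, -1.01 to 0.57 for UBB, 0.14 to 2.33 for HSPA8, -0.89 to -0.07 for DNAJB1, -0.10 to -0.04 for HSP90AA1 and 0.02 to 0.10 for BAG3. In G3BP2 it ran from -0.23 to 0.18 for HSPH1, -0.04 to 0.80 for HSPA8, -0.01 to 0.13 for HSP90AA1, -0.15 to 0.05 for BAG3, -0.40 to -0.09 for DNAJB1, -1.74 to -0.23 for HSPB1 and 0.01 to 1.24 for UBB. The cause of these changes was not tested. RNA-seq has no replicates and TPM gives no depth, and low recovered numbers limit the eCLIP values of UBB, HSPB1 and HSPA8. Leaving out the highest library of a density and the HSPA1 pair of the chromosome 6 stretch were chosen after seeing the data.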
